A study of Mus musculus with 2 samples.

Results

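Cathepsins are the main proteases of the lysosome, and cystatins are small proteins that block the cysteine cathepsins among them. The 10 genes described here were taken by name from a table of 38293 genes: the cathepsin genes Ctsb, Ctsc, Ctsd, Ctsh, Ctsk, Ctsl, Ctss and Ctsz, and the inhibitor genes Cst3 and Cstb. Their RNA was measured in alveolar-type macrophages that had been sorted from mouse lung for CD45, high CD11c and Siglec-F, with CD11b low. All mice were C57BL/6, 8 weeks old, and had received 625 larvae of the lung-migrating roundworm Nippostrongylus brasiliensis under the skin 7 days before. One group was wild type (WT) and the other is labelled Axl-/-Mertk-/-, for genes of receptor kinases through which macrophages recognise apoptotic cells. There was 1 library per genotype. The labels give no allele or deleted exon for either gene, and they leave it unsaid whether a library holds cells of a single mouse or of several.

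Macrophages make cathepsins as inactive precursors that are sorted to the lysosome, where acid and other proteases activate them. There they degrade what the cell has engulfed, including apoptotic cells, and cut the invariant chain so that MHC class II molecules can load peptides. Endopeptidases cut within a protein and exopeptidases trim its ends. Cystatin C (Cst3) is secreted and stefin B (Cstb) acts mainly in the cytosol. Both bind cysteine cathepsins, whereas cathepsin D (Ctsd) is an aspartic protease that they do not inhibit. Cathepsin K (Ctsk) is best known as the collagenase of osteoclasts, and lung macrophages also express it.

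Reads assigned to genes numbered 15282882 for WT and 15519680 for Axl-/-Mertk-/-. All levels are given as normalised reads, the deposited unit, and 1 sequenced read adds 1.21 to a WT value and 1.18 to an Axl-/-Mertk-/- value. A ratio is always Axl-/-Mertk-/- over WT, and its exact 95% interval covers counting error only. With 1 library per genotype the spread between animals is unknown and the genotypes were compared without a test. The targeted genes had ratios of 0.155 for Axl (24789.8 and 3851 normalised reads) and 0.438 for Mertk (6484 and 2842), so both were lower in the library labelled as the knockout and neither was at 0. Genes behind the sort were present in both libraries, with Itgax, which encodes CD11c, at 40087 and 39176 and Siglecf at 2566 and 2347. In such bulk samples fewer cells of a kind and less RNA per cell cannot be told apart.

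Cathepsin RNA was abundant in both libraries. The 10 genes together took 2.65% of the reads from WT (Clopper-Pearson interval 2.65% to 2.66%) and 2.74% of those from Axl-/-Mertk-/- (interval 2.73% to 2.74%). Ctsd, Ctss and Ctsb alone gave 78.1% of these reads in WT and 79.4% in Axl-/-Mertk-/-. Ctsd was the fifth most abundant gene by normalised reads in both libraries, and Ctss ranked 8 in WT and 7 in Axl-/-Mertk-/-. The least abundant of the 10 was Cstb, which ranked 645 and 741.

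Levels of different genes were compared per kilobase of merged exons, since a longer transcript yields more fragments. Per kb, Ctss, whose enzyme cathepsin S stays active at neutral pH, stood first with a level of 86275 normalised reads per kb for WT and 95846 for Axl-/-Mertk-/-. Ctsd followed with 75482 and 77646. Both levels were several-fold above the next gene, Ctsz, at 18208 and 17779 per kb, which was followed by Ctsb at 14493 and 14123. A middle group had Ctsk at 10415 and 7793 per kb, Cstb at 7497 and 6732 and Cst3 at 6749 and 7329.6. The lowest levels were those of Ctsc at 4459.6 and 4707, Ctsl at 2906 and 2513, and Ctsh at 1631 and 1915 per kb. The order was the same in both libraries except that Cstb lay above Cst3 in WT and below it in Axl-/-Mertk-/-. Every pair of neighbours in either library differed by more than counting error.

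This order depended on which length was used. Ctsz lay above Ctsb per merged exons and below it under the 3 other lengths. Per kilobase of the principal transcript, which leaves out long alternative exons, Ctsl moved up to 9568 and 8274 per kb, and Cst3 lay above Cstb in both libraries, at 9935 and 10789.9 against 7497 and 6732. On that scale Ctsk held place 5 in WT and place 8 in Axl-/-Mertk-/-. There 3 pairs of neighbours did not differ beyond counting error: Ctsk and Ctsc in WT, and Ctsb with Ctsz and Ctsc with Cst3 in Axl-/-Mertk-/-. Ctss and Ctsd held the first and the second place under all 4 lengths tried, with Ctsd first per coding length. Ctsh was the lowest in both libraries under 3 of them, and per longest transcript Ctsl lay below it in Axl-/-Mertk-/-.

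**Figure D1:**
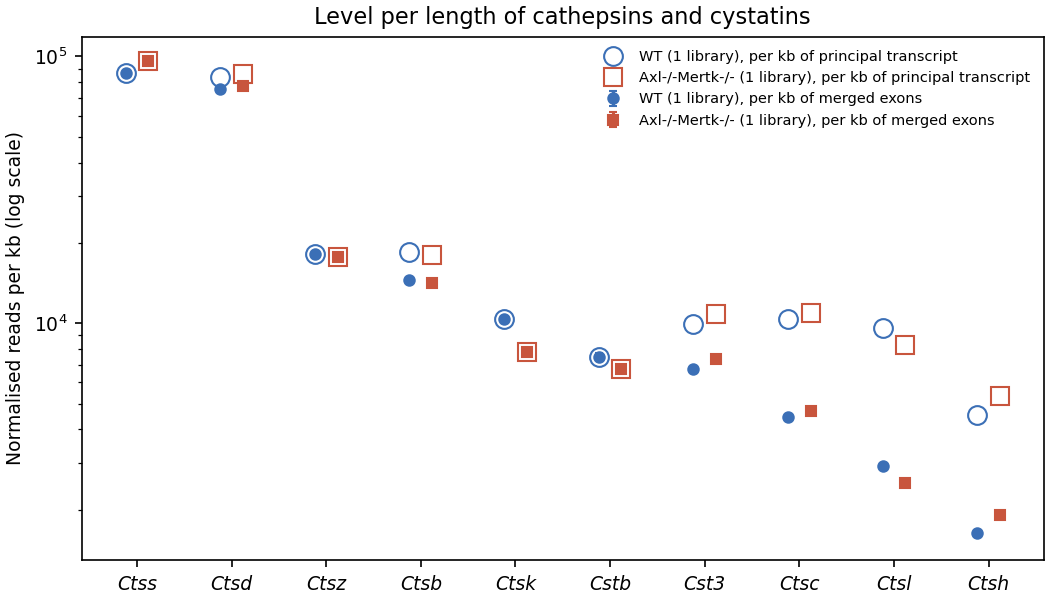
Level of each gene in WT (blue circles) and Axl-/-Mertk-/- (red squares), in normalised reads per kb on a log axis, with filled symbols per kb of merged exons and open symbols per kb of the principal transcript. Counting intervals are smaller than the symbols. Ctss and Ctsd stand above the other genes, and the order of the genes from Ctsz downwards depends on the length used.

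Between genotypes the genes did not shift together. Their ratios ran from 0.748 for Ctsk to 1.17 for Ctsh, with 5 genes higher and 5 lower in Axl-/-Mertk-/- and a median log2 ratio of 0.0032 (10 normalised reads added to each value). Among all 11795 measured genes, those with a mean of at least 20 normalised reads, 48.8% were higher and the median was -0.0047. Among the 689 genes at least as abundant as Cstb, 45.9% were higher and the median was -0.01. No member was past 1.5-fold, against 3.07% of all measured genes and 0.871% of the 689 abundant ones. Past 1.2-fold there was 1 member, Ctsk, which was lower. The share past 1.2-fold was 8.50% lower and 8.37% higher among all measured genes, and 2.61% lower and 2.18% higher among the abundant ones.

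The counting interval of the ratio lay away from 1 for all 10 members, against 21.5% of measured genes and 60.5% of the abundant genes. Deep counts make such an interval narrow, so it separates these 2 libraries and says nothing of the spread between mice. For Ctsz the interval reached 1 under 3 of 4 other scalings. Ratios of ratios, which need no scaling, were away from 1 for 41 of the 45 pairs of members. The 4 other pairs were Ctsb with Ctsz, Ctsc with Cst3, Ctss with Cst3, and Ctsl with Cstb.

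**Figure D2:**
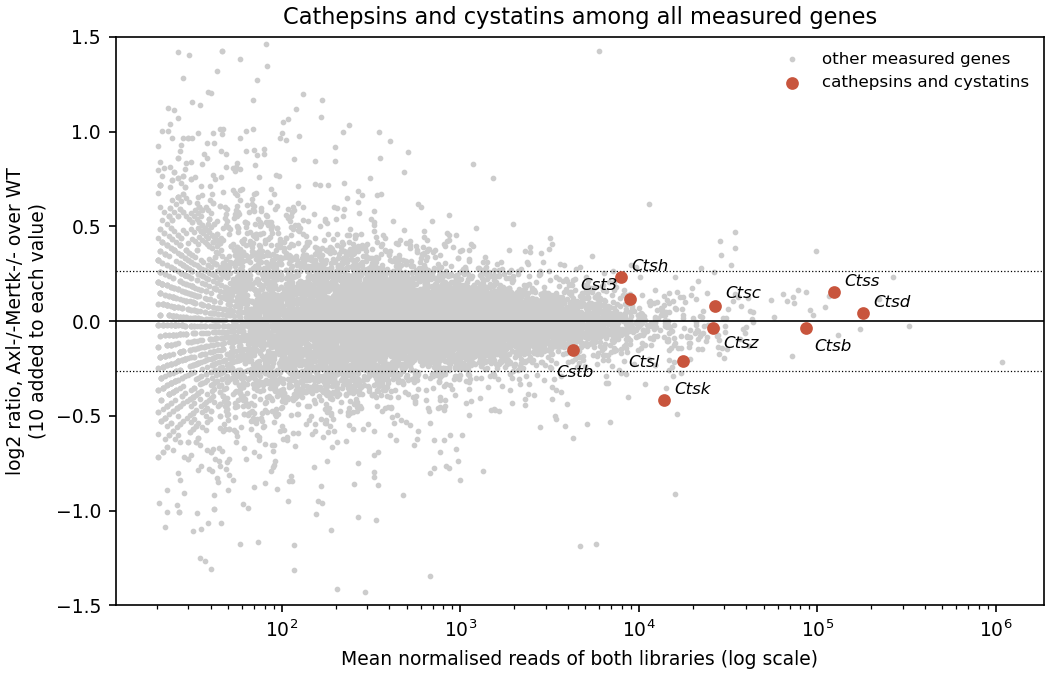
Log2 ratio of Axl-/-Mertk-/- over WT against the mean normalised reads of both libraries (log axis), for the 10 members (red) and the other measured genes (grey), with dotted lines at 1.2-fold; 15 genes beyond 1.5 on the log2 axis are not drawn. Ctsk is the one member outside the dotted lines, at a level where few genes are.

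Among the endopeptidases Ctsk showed the largest difference. It lies at chr3:95499256-95509362 (GRCm38, as are all positions) and was at 15747 normalised reads in WT against 11783.0 in Axl-/-Mertk-/- (ratio 0.748, interval 0.729 to 0.768). Only 7 of the 689 abundant genes had a lower ratio, and 383 of all measured genes did. Ctsl, which encodes cathepsin L, a broad lysosomal endopeptidase (chr13:64359337-64370890), was also lower, at 18859 and 16309 (ratio 0.865, interval 0.845 to 0.885). In the abundant set 32 genes lay below it. Ctsl shares 1742 exonic bases with the antisense gene Gm47123 and 395 with the pseudogene Gm49230 on its own strand, and neither was analysed here.

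The other endopeptidases were higher in Axl-/-Mertk-/-. Ctss (chr3:95526786-95556403) was at 117162 and 130158 normalised reads (ratio 1.11, interval 1.1 to 1.12). Of the abundant genes 47 had a higher ratio. Ctsd (chr7:142375911-142388038) was at 177458 and 182545 (ratio 1.03, interval 1.02 to 1.04). Because Ctsd and Ctss dominate the pool, the summed endopeptidase reads were slightly higher in Axl-/-Mertk-/-, at a ratio of 1.04 (1.03 to 1.04), although 2 of these 4 genes had lower values. Ctsd shares 808 exonic bases with the overlapping gene Gm49369 on the same strand, which was not analysed here.

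Ctsk and Ctss are neighbours on chromosome 3 in the same orientation, with 17.4 kb between them, and their ratios lay on opposite sides of 1. The WT library held 7.44 Ctss reads for each Ctsk read, and the other library 11.0. The ratio of these ratios was 1.48 (1.44 to 1.53), which does not depend on the scaling. Per length of the principal transcript, Ctss was 8.30 times the level of Ctsk in WT and 12.3 times in Axl-/-Mertk-/-. The 250 bases before the start of each gene are shown because they are the closest upstream sequence of neighbours that differed in direction. They come from RefSeq on GRCm38.p6, both on the plus strand, at chr3:95498960-95499209 for Ctsk and chr3:95526536-95526785 for Ctss, and capitals mark a match to the interferon-stimulated element described next.
Ctsk: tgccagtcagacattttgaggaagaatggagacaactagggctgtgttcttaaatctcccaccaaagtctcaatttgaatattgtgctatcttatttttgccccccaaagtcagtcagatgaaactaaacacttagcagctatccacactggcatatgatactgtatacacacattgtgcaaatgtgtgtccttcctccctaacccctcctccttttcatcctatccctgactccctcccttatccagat
Ctss: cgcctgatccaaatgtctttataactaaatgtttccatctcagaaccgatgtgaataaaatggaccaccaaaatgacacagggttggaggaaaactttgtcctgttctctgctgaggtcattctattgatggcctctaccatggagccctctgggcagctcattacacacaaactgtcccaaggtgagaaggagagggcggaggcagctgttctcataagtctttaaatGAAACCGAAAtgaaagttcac

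Windows of this kind were found for 7 of the 10 members, and not for Ctsb, Ctsh and Cstb. Each was searched on both strands for the core of the element bound by interferon regulatory factors, which is GAAA, any 2 bases and GAAA, and for the E-box CACGTG with its extended form TCACGTGA. The extended form contains the E-box, and TFEB and its relatives, which control lysosomal genes, bind such sites. Ctss had the letters GAAACCGAAA from 21 to 12 bases before its start, a match that 2.98% of all 32851 windows hold for that motif. Ctsk had no match to any of these motifs and no CG dinucleotide in its 250 bases, where the median window has 6. The E-box was found in 6.02% of all windows and among the members in Ctsd, 2 times, and in Ctsl. The Ctsl window (minus strand, chr13:64370521-64370770) lies wholly within the annotated gene, so it is not upstream of the outermost annotated start. Ctsd had the extended form, found in 0.785% of windows, from 99 to 92 bases before its RefSeq start, within the first exon of a longer annotated transcript. That stretch is shown with 10 bases on either side and the motif in capitals (minus strand, chr7:142387909-142387936).
Ctsd: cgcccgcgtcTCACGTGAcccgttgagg
These matches are letters in a sequence and show no binding. The window of Ctsd, which has the extended E-box, belongs to a gene with a ratio of 1.03. That of Ctsl, with a plain E-box, belongs to a gene with a ratio of 0.865. A link between the motifs, which were chosen after the sequences had been seen, and the ratios was not tested.

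**Figure D3:**
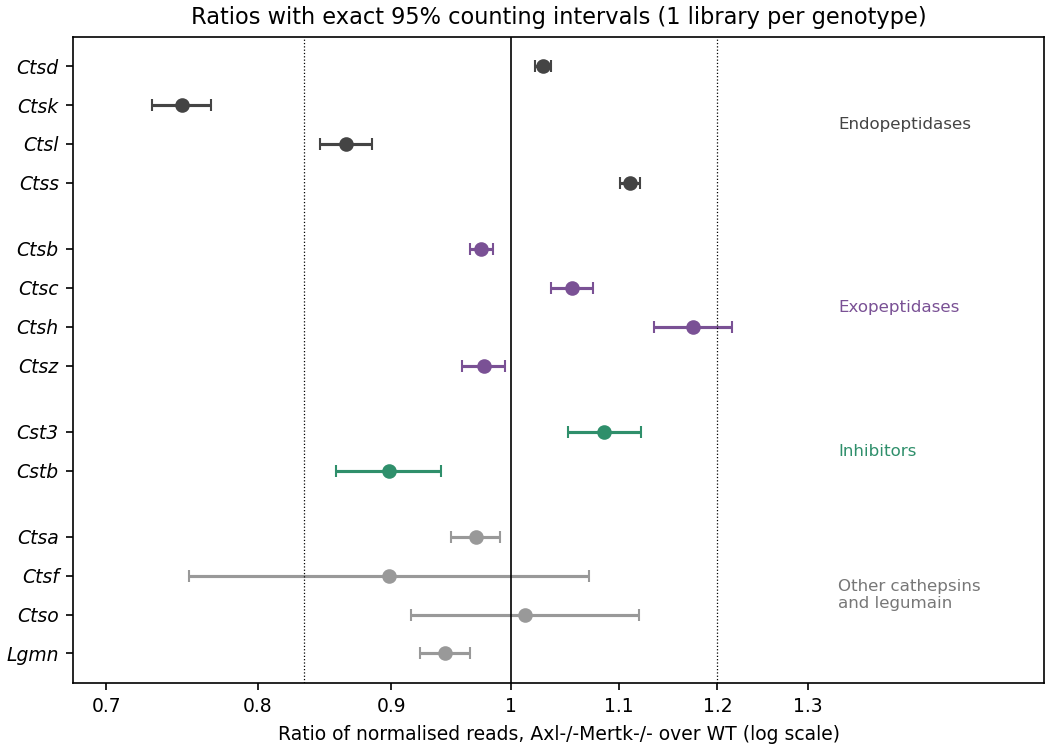
Ratio of normalised reads, Axl-/-Mertk-/- over WT (log axis), for the members by role and for 4 other family genes with a mean of at least 50, with exact 95% counting intervals; dotted lines mark 1.2-fold. Ctsk lies beyond 1.2-fold lower, Ctsh comes closest to 1.2-fold higher, and each role holds genes on both sides of 1.

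Exopeptidases also split by direction. Ctsh encodes cathepsin H, an aminopeptidase that also takes part in surfactant protein processing in alveolar epithelium (chr9:90054152-90076089). It was at 7336 normalised reads in WT against 8616 in Axl-/-Mertk-/- (ratio 1.17, interval 1.13 to 1.22), the highest of the 10. In the abundant set 20 of 689 genes had a higher ratio. Ctsc encodes cathepsin C, a dipeptidyl peptidase that activates granule serine proteases (chr7:88278085-88310888). It was at 25901 and 27339.8 (ratio 1.06, interval 1.04 to 1.08).

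Values of the remaining exopeptidases lay close together in the 2 libraries. Ctsb encodes cathepsin B, which cuts within proteins and also trims their carboxy ends (chr14:63122462-63145923). It was at 87697 and 85457 normalised reads (ratio 0.974, interval 0.964 to 0.985). Ctsz encodes cathepsin Z, a carboxypeptidase (chr2:174427493-174439039). Its values were 26238 and 25619.9 (ratio 0.976, interval 0.958 to 0.995). The pooled exopeptidase reads had a ratio of 0.999 (0.991 to 1.01). Ctsb shares 774 exonic bases with Fdft1 on the opposite strand, which had 600 and 620 reads in all. Ctsz shares 10 with Nelfcd, which had 309 and 337 reads. The strand setting of the counting is not given in the sources used here.

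The inhibitors differed in direction too. Cst3 (chr2:148871722-148875692) was at 8544 normalised reads in WT against 9279 in Axl-/-Mertk-/- (ratio 1.09, interval 1.05 to 1.12). Cstb (chr10:78425669-78427622) was at 4521 and 4059 (ratio 0.898, interval 0.857 to 0.941). For each Cstb read there were 1.89 Cst3 reads in WT against 2.29 in the other library, and the ratio of these ratios was 1.21 (1.14 to 1.28). Pooled inhibitor reads had a ratio of 1.02 (0.994 to 1.05), and the 7 cysteine cathepsins pooled one of 1.02 (1.02 to 1.03). In summed reads the balance between them differed by less than counting error. There were 0.0437 inhibitor reads for each cysteine cathepsin read in both libraries, with a ratio of ratios of 1.0 (0.973 to 1.03). These sums are not corrected for length, so the genes with most reads weigh most, and the balance of levels per length was not computed.

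Within the cathepsin pool the make-up moved by a few percentage points. Taking the summed level per kb of merged exons of the 8 cathepsins as the whole, Ctss made up 40.3% in WT and 43.1% in Axl-/-Mertk-/-. Ctsd made up 35.3% and 34.9%, and Ctsk 4.87% and 3.51%. Per kb of the principal transcript the share was 35.8% and 38.4% for Ctss and 4.31% and 3.12% for Ctsk. These shares have no replicate error, and the higher share of Ctss and the lower share of Ctsk appear with both lengths.

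Positions were set beside those of the targeted genes. Of the 10 genes 4 lie on a chromosome with Axl or Mertk. Cst3 is 20.1 Mb from Mertk and Ctsz 45.6 Mb, and Ctsc is 62.5 Mb from Axl and Ctsd 117 Mb. The ratios of these 4 ran from 0.976 to 1.09. Ctsk, Ctsl, Ctss, Ctsh, Ctsb and Cstb lie on other chromosomes, and their median log2 ratio was -0.096.

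Other genes of the same families gave little RNA or nearly equal values. Of 9 further family genes 5 were measured. Their median log2 ratio was -0.04, and 2 of them were higher and 3 lower, beside 48.8% higher among all measured genes. Lgmn, the asparagine endopeptidase legumain, which cleaves cathepsin precursors, was at 19259 and 18179 normalised reads (ratio 0.944, interval 0.923 to 0.965). Ctsa, the serine carboxypeptidase cathepsin A, was at 19629 and 19029.6 (ratio 0.969, interval 0.949 to 0.991). Ctsf was at 326 and 293, a ratio whose interval includes 1 (0.753 to 1.07). Of 21 further cystatin and stefin genes listed, 20 were present among the deposited genes and 1 was measured: Cst7, the leukocyte cystatin F, at 49.5 and 40.1 (ratio 0.811, 0.499 to 1.31).

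Of 19 measured genes that sort enzymes to the lysosome 15 were lower in Axl-/-Mertk-/- and 4 higher, beside 48.8% higher among all measured genes. None was past 1.2-fold, beside 8.50% lower and 8.37% higher among all measured genes. The counting interval lay below 1 for 4 of them, against 1344 of the 11795 measured genes and 235 of the 689 abundant ones. Their median log2 ratio was -0.04. Igf2r, the large mannose 6-phosphate receptor that carries cathepsin precursors, was at 1966 and 1677 normalised reads (ratio 0.853, interval 0.794 to 0.917). M6pr, the small receptor, was at 6601 and 6589 (ratio 0.998, interval 0.961 to 1.04). Sort1, the sorting receptor sortilin and the most abundant gene here, had a ratio of 0.980 (0.953 to 1.01). The interval of Gnptg, a subunit of the enzyme that makes the mannose 6-phosphate tag, included 1 (0.791 to 1.06).

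Beside 48.8% higher among all measured genes, 6 were higher and 9 lower among 15 measured regulators of lysosomal genes. The median of their log2 ratios was -0.012 and turned positive under the median-of-ratios scaling. Tfeb, a transcription factor of lysosomal genes, was at 1177 and 1294 normalised reads (ratio 1.1, interval 1.01 to 1.2). Zkscan3, reported as a repressor of autophagy genes, was at 535 and 686 (ratio 1.28, interval 1.13 to 1.45). The intervals of Mitf (0.956 to 1.08), of Nfatc1, which drives Ctsk in osteoclasts (0.959 to 1.12), and of Spi1, the myeloid factor PU.1 (0.927 to 1.0), included 1. The GTPase gene Rragd was at 123 and 95.6, also with an interval that includes 1 (0.573 to 1.05).

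Substrates and partners of cathepsins varied more. There were 6 higher and 7 lower among 13 measured genes, beside 48.8% higher among all measured genes. The median log2 ratio of the 13 genes was -0.02. Cd74, the invariant chain that cathepsin S cuts, was at 86248 and 111295 normalised reads (ratio 1.29, interval 1.28 to 1.3), larger than that of Ctss. Ifi30, a lysosomal thiol reductase that helps unfold antigens, was at 21837 and 21081 (ratio 0.965, interval 0.946 to 0.986). Thbs1, a matrix protein, was the one gene past 1.5-fold, at 7931 and 3503 (ratio 0.442, 0.423 to 0.461), and lies on chromosome 2 with Mertk. Psap, the saposin precursor that cathepsin D cleaves, was at 329203 and 323422 (0.982, 0.977 to 0.988). Among serine proteases that cathepsin C activates, Gzmb was at 50.7 and 66.1, with an interval that includes 1 (0.859 to 1.99). Gzma had 50 and 57 reads and Prtn3 8 and 16 (ratio 1.96, interval 0.79 to 5.28), and neither Elane nor Mcpt4 had a read in either library, where a count of 0 allows a level of up to 3.62 for WT and 3.54 for Axl-/-Mertk-/-.

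**Figure D4:**
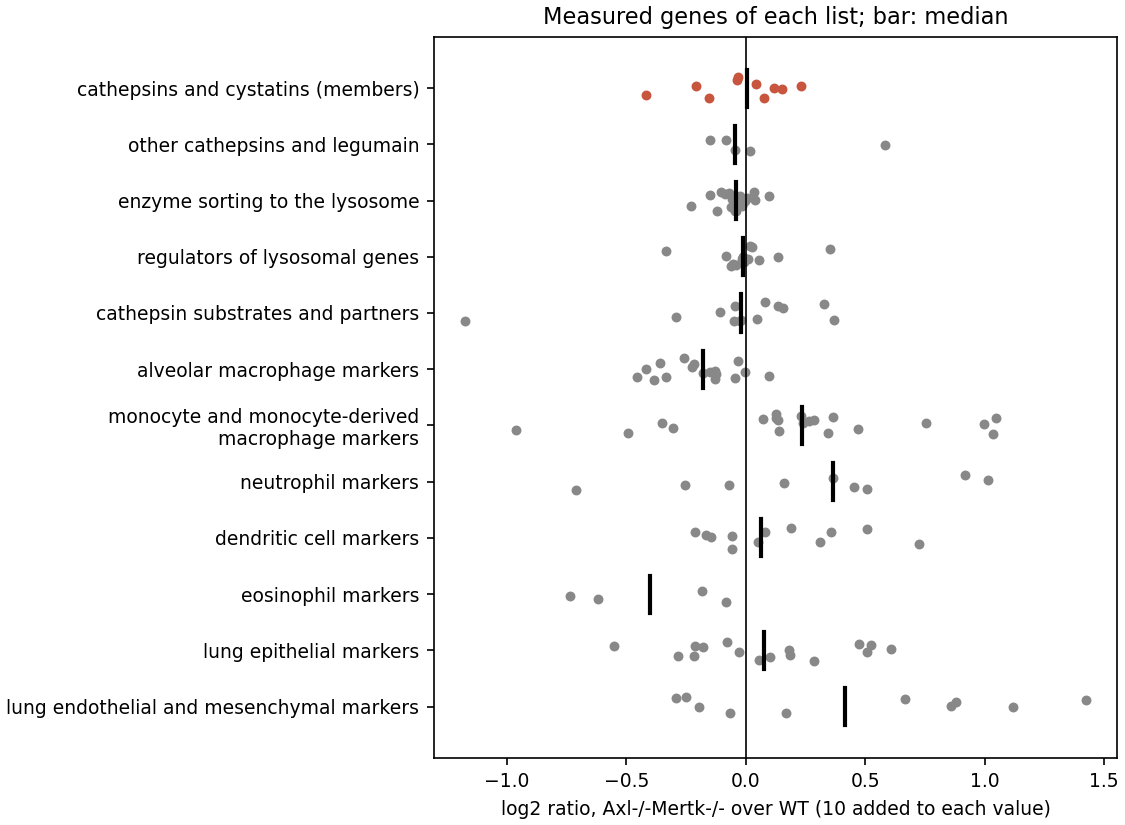
Log2 ratio of Axl-/-Mertk-/- over WT for each measured gene of 12 lists, with 10 added to each value; every point is a gene and black bars are medians. The members lie on both sides of 0, alveolar macrophage markers mostly below it and the list of monocyte and monocyte-derived macrophage markers mostly above it.

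Markers of cell identity differed between the libraries alongside these genes. As background, 48.8% of all measured genes were higher, 8.50% were past 1.2-fold lower and 8.37% past 1.2-fold higher. Of 17 measured alveolar macrophage markers 16 were lower in Axl-/-Mertk-/-, with a median log2 ratio of -0.18, and none was at 0. Their summed level was 1344284 in WT and 1168089.5 in Axl-/-Mertk-/-, most of it from Chil3. The lowest ratios of this list were those of Slc39a2 (764 and 554), Kcnn3 (944 and 705) and Fabp4 (2706 and 2068), at 0.725, 0.747 and 0.764. Monocyte and monocyte-derived macrophage markers were higher for 16 of 20 genes, with a median of 0.24, summed levels of 100721 and 121820 and none at 0. Apoe, a lipid carrier and the most abundant of them, was at 28900.3 and 40081, and Ly6c2 (62.8 and 140.5), Adgre4 (152 and 322) and Plac8 (144 and 296) were more than 2-fold higher. The list mixes kinds of macrophage, and its 4 lower genes are not specific to monocytes. They were each past 1.2-fold: Folr2 (226 and 111), Cd163 (518 and 365), Lyve1 (97.8 and 74.4) and Tmem119 (79.7 and 62.6). Of these, Lyve1 (0.538 to 1.07) and Tmem119 (0.537 to 1.14) had counting intervals that included 1. The part of these shifts in the values of Ctsk, Ctsl, Ctss and Ctsh was not tested.

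Marker lists of other cells that express particular cathepsins had smaller summed levels than the macrophage lists above. Which cells these reads came from was not tested. Lung epithelial markers were higher for 9 of 16 measured genes, beside 48.8% higher among all measured genes. The epithelial list had a median log2 ratio of 0.077, summed levels of 13535 and 12360.2 and none at 0. The type II cell gene Sftpc was at 151 and 157 normalised reads, and Napsa was at 962 and 1173. Hopx was at 268 and 390, Sftpb at 56.7 and 85.0, Scgb1a1 at 2964 and 2432, and the most abundant, Cdh1, at 6692 and 5916. Dendritic cell markers were higher for 7 of 12 genes (median 0.065, summed 38373 and 36894, none at 0). Most of that sum came from Sirpa, which was at 31064 and 29869. Dpp4 was at 167 and 282, Kit at 67.6 and 100.3 and Clec9a at 162 and 210.1.

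Neutrophil markers were higher for 6 of 9 measured genes, beside 48.8% higher among all measured genes. The neutrophil list had a median log2 ratio of 0.36 and summed levels of 2900.0 and 3335. Elane and Ctsg, the neutrophil cathepsin G, were at 0. Mmp8 was at 999 and 950.2, S100a9 at 135 and 264, Ltf at 95.3 and 54.3 and Mmp9 at 96.5 and 142. Eosinophil markers were lower for 4 of 4 measured genes (median -0.40, summed 1338 and 825, Prg3 at 0). Most of that sum came from Alox15 at 1213 and 724, the only gene of the 4 whose counting interval lay below 1. Ccr3 was at 54.3 and 50.8 (interval 0.601 to 1.45). Endothelial and mesenchymal markers were higher for 6 of 10 genes (median 0.42, summed 1238 and 1505, none at 0). The 6 higher genes were all endothelial and the 4 lower ones all mesenchymal. Counting intervals lay above 1 for 5 of the higher genes and included 1 for the 4 lower ones. Pecam1 was at 507 and 570.1, Ptprb at 72.4 and 169, Cdh5 at 80.9 and 155 and Col1a1 at 149.6 and 120.4. The part of these cells in the values of the cathepsins was not tested.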

How the data were processed

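Polyadenylated RNA of sorted lung macrophages was sequenced from strand-marked libraries, per the labels' protocols. The authors deposited a signal, gene-level reads scaled by a size factor for each library. DESeq2, TopHat2 and the build GRCm38 are named in the submitters' processing notes. How reads were counted, and with which strand setting, is not given in the sources used here. The table held 0 columns of other samples.

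Whole reads were recovered from the smallest non-zero value of each library, with 100% of values whole within 1e-06. The 2 groups follow the genotype labels. With 1 library each no degrees of freedom are left for the error, so the quasi-likelihood test of edgeR could not be fitted and no p-value is given. Ratios carry exact Clopper-Pearson 95% intervals from the recovered reads, which cover counting error only, since several reads may be copies of one molecule and the labels name no molecular identifiers. Log2 ratios used a pseudocount of 10, which understates low genes, and a gene was measured at a mean of at least 20. Rules of size were 1.5-fold and 1.2-fold. The intervals and rules were also run on simulated reads that held counting error only, which cannot show how they do under spread between animals.

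The members and lists were chosen with earlier results of these data known, and the motifs after the sequences had been seen. Named were all members, Axl and Mertk, and from each list the most abundant gene with up to 3 of the largest ratios at a mean of at least 50. Overlapping genes and genes whose values bear on a role (Itgax, Siglecf, M6pr, Mitf, Nfatc1, Ifi30, Sftpc, Napsa, Elane, Mcpt4, Gzma, Prtn3, Folr2, Cd163, Lyve1 and Tmem119, with Ctsg and Prg3 for their 0 reads) were added after their values were seen. A gene that this rule picks from the sorting list is not reported here. With 2 libraries no likeness of pattern between genes was measured.

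Positions and lengths came from GENCODE vM21 (GRCm38), and copies were sought with BLAST+ 2.17.0 (at least 90% identity over at least 100 bases). Apart from the overlapping genes Fdft1 and Gm49369 that search found Gm5398 for Ctsh, with 0 reads in both libraries. Alternatives were 4 other scalings (among them TMM of edgeR 4.0.16 and the factors of DESeq2 1.42.0), pseudocounts, minimum means, members left out and other lengths. Python 3.11.15, numpy 2.4.6, pandas 2.3.3, SciPy 1.17.1, R 4.3.3 and matplotlib 3.10.9 were used.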

Additional observations from a re-analysis of the deposited data

How the results depend on the processing

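Directions of all 10 genes held under 4 other scalings and under pseudocounts of 1 and 50, and Ctsk was the 1 gene past 1.2-fold in each, as well as with no minimum mean and with one of 100. The counting intervals away from 1 numbered 10 with TMM and 9 with the other scalings, where that of Ctsz reached 1. The median log2 ratio of the members was -0.096 without the 4 on the chromosomes of Axl and Mertk. The pooled endopeptidase ratio was 1.05 with median-of-ratios factors, 1.04 with total reads and with total reads without mitochondrial and the 10 most abundant genes, and 1.04 without Ctsd. For the exopeptidases it was 1.01 with median-of-ratios factors and 1.04 without Ctsb, and for the inhibitors 0.898 without Cst3, which is the value of Cstb alone. By their mean level over both libraries, 2 genes kept their place in the order per longest transcript, 1 per coding length and 3 per principal transcript, a length added after seeing the data. No paired analysis was possible because each genotype has 1 library, and for the same reason no replicate could be left out. Counting error leaves the ratios of low genes wide, as for Cst7 (0.499 to 1.31) and Gzmb (0.859 to 1.99).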

Other observations

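Several relatives of these genes were close to or below detection. Of the 21 other cystatin and stefin genes listed, 20 were present among the deposited genes, and 15 of these had 0 reads in both libraries, among them the stefin A genes Stfa1, Stfa2 and Stfa3, which mouse neutrophils express. A count of 0 allows up to 3.62 normalised reads for WT and 3.54 for Axl-/-Mertk-/-. Stfa2l1 had 0 WT reads and 2 Axl-/-Mertk-/- reads, and Csta1 had 0 and 1. Among the cathepsins, Ctsw, a gene of cytotoxic lymphocytes, had 14 and 19 reads, and Ctse, an aspartic protease of antigen-presenting cells, had 24 and 41 (ratio 1.67, 0.986 to 2.89). Tinagl1, a protein related to cathepsins without protease activity, had 4 and 16 reads (ratio 3.91, 1.26 to 16.1). Its mean of 11.9 normalised reads was below the minimum of 20. These genes were named after their values were seen.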
